A study of Mus musculus with 2 samples.

Results

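The genes described here encode the enzymes that hydroxylate collagen chains inside the cell and crosslink collagen and elastin outside it. They are 10 genes, chosen by name among the non-control spots of both arrays: the lysyl oxidases Lox, Loxl1, Loxl2, Loxl3 and Loxl4, the lysyl hydroxylases Plod1, Plod2 and Plod3, and the prolyl 4-hydroxylase subunits P4ha1 and P4ha2. The arrays carry 29608 gene names in all. The 10 genes have 18 oligos of 60 bases, each printed as 1 spot, and 17 of these oligos were measured on both arrays, meaning well above background by the scanner software's call and not saturated. All 10 genes have at least 1 measured oligo. The cells were 661W, a mouse photoreceptor line, grown for 3 days either in choline-deficient or in choline-sufficient DMEM/F12 medium. Choline in the sufficient medium is labelled as 8.98 g/L, which could not be checked here. The routine medium held 10% fetal bovine serum, and whether the treatment media did is not stated in the sources used here. Total RNA of 1 choline-deficient and 1 choline-sufficient sample was labelled with Cy3 and hybridised to 1 Agilent single-colour array each, on the same slide. The design text speaks of RNA pooled from 4 dishes without saying how these were divided.

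Each condition has 1 array, so the differences have no replicate check and p-values are not given. Of the 43020 non-control spots, 70.7% were well above background on the choline-deficient array and 68.5% on the choline-sufficient array. Signals are the scanner's background-subtracted intensities. Levels are log2 of the signal over the array's own 75th percentile, which was 1609 on the choline-deficient array and 1280 on the choline-sufficient array. A difference is the log2 level on the choline-deficient array minus that on the choline-sufficient array, averaged over a gene's measured oligos. Values after ± are the software's spot errors, carried through from both arrays, and hold nothing of the spread between cultures. They are nearly constant, from 0.204 to 0.208 over the measured oligos of the 10 genes. Spots of 1 probe, where repeated, differed with a median SD of 0.0481. The ± is thus a near-fixed allowance and no measured spread of the gene. In bulk RNA a change in the number of cells of a type and a change in RNA per cell cannot be told apart. The cells were named a photoreceptor line, but Crx, Nrl, Rcvrn and the cone opsin gene Opn1sw were well above background on neither array, while 7 of 11 cone markers, among them Gnat2, were measured on both. Of these 7, Arr3, Opn1mw, Pde6h and Thrb were dim, at log2 levels of -5.14 or lower on both arrays.

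Collagen is made in the endoplasmic reticulum, where prolyl 4-hydroxylases modify prolines so that the triple helix is stable at body temperature. Lysyl hydroxylases modify lysines that later carry sugars or take part in crosslinks. After secretion, the copper enzymes of the lysyl oxidase family oxidise lysines and hydroxylysines, and the products join neighbouring chains. Prolyl and lysyl hydroxylases need iron, 2-oxoglutarate and ascorbate, and Lox, Loxl2, Plod2, P4ha1 and P4ha2 are known as genes that hypoxia-inducible factors raise.

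Every value rests on the array's oligos, and the genes form families of related sequence, so oligos of 4 genes are shown. Those of Loxl2 and Loxl1 were brighter on the choline-deficient array, and those of Plod1 and Plod3 differed little. They are read 5′ to 3′ along the transcript, with positions on mm9 as the files give them. Capitals mark the longest run of bases that the oligo shares with an oligo of another of the 10 genes.
Loxl2, chr14:70092141-70092200, plus strand: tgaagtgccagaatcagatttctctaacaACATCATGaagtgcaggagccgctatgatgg
Loxl2, chr14:70090017-70090076, plus strand: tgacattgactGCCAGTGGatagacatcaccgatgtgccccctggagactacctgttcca
Loxl1, chr9:58138570-58138629, minus strand: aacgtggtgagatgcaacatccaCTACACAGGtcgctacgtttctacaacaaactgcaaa
Loxl1, chr9:58145451-58145510, minus strand: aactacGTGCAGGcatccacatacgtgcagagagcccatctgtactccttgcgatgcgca
Plod1, chr4:147290037-147291457, minus strand: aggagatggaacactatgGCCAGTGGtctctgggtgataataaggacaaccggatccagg
Plod3, chr5:137472079-137472138, plus strand: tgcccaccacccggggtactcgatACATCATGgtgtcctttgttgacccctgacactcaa
The Plod1 oligo of 60 bases is placed over 1421 bases of the genome, so it is split there. Over the 143 pairs of oligos from different members, the longest shared run was 9 bases, between a Loxl1 and a Lox oligo, and the median was 5. This search set oligos against oligos only. Whether an oligo matches another part of a related gene's transcript was not tested. The base composition of the measured oligos ran from 35% to 55% G and C.

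On the choline-deficient array 6 of the 10 genes were higher by 2-fold or more, 0 were lower by as much, and 4 lay between. Of all 19818 measured genes, 7.67% were higher by 2-fold or more and 3.88% were lower. The 10 genes and the lists below were chosen with earlier results of these data known. Their counts are therefore descriptions and no independent test. The median difference of the 10 genes was 1.39, against -0.10 over all measured genes. The 6 genes were Loxl2, Lox, Loxl1, P4ha1, Plod2 and P4ha2. Those within 2-fold were Loxl3, Plod1, Plod3 and Loxl4. Both prolyl 4-hydroxylase subunits were among the 6, with 1 of 3 lysyl hydroxylases and 3 of 5 lysyl oxidases. At a size of 1.5-fold, which 14.8% of all genes exceeded upward, 7 of the 10 genes were higher, the added one being Loxl3. Loxl3 was below 1.5-fold with median scaling (0.48), with quantile scaling (0.50) and after normexp background correction (0.52). At 3-fold, which 3.06% exceeded upward, 4 were higher. P4ha1, among these 4, was 1.46 after normexp, below 3-fold.

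**Figure D1:**
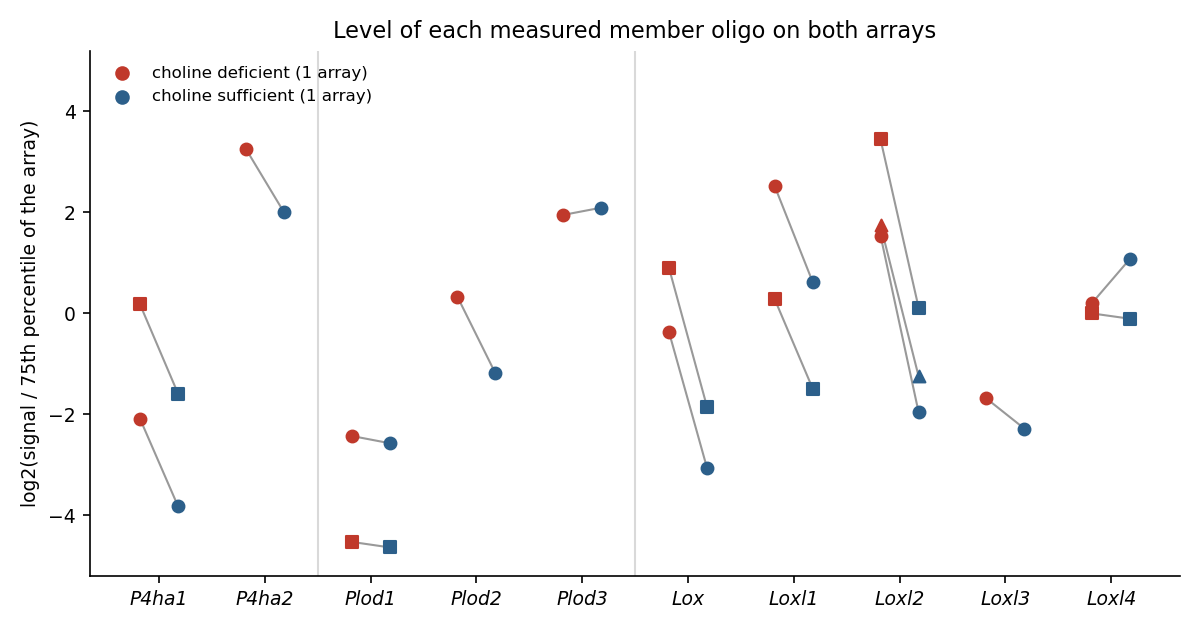
Level of each measured oligo of the 10 genes, as log2 of its signal over the array's 75th percentile, on the choline-deficient array (red, left) and the choline-sufficient array (blue, right). Each line joins the 2 values of 1 oligo, and marker shapes separate the oligos of a gene. Every oligo of P4ha1, P4ha2, Plod2, Lox, Loxl1 and Loxl2 is higher on the choline-deficient array by more than 1 unit, while those of Plod1 and Plod3 lie nearly level and the Loxl4 oligos run in opposite directions.

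The prolyl 4-hydroxylase enzyme is a tetramer of catalytic alpha subunits, encoded by P4ha1, P4ha2 or P4ha3, and the beta subunit encoded by P4hb, which is protein disulfide isomerase. P4ha1, the subunit that most cells use (2 oligos, chr10:58835012-58835684 on mm9), had signals of 378 and 1822 on the choline-deficient array, against 90.4 and 425 on the choline-sufficient array. Its difference was 1.75 ± 0.20, or 3.37-fold higher, with the oligos at 1.74 and 1.77. Both oligos were brighter on the choline-deficient array, by nearly the same amount. P4ha2 (1 oligo, chr11:53945032-53945091), the subunit that is prominent in cartilage and endothelium, had a signal of 15421 on the choline-deficient array, against 5136 on the choline-sufficient array. This is a difference of 1.26 ± 0.20, or 2.39-fold higher. P4ha3, a further alpha subunit outside the 10 genes, was also higher, at 1.42 ± 0.21, with oligos at 0.98 and 1.86, but it was 0.63 after normexp background correction. The beta subunit gene P4hb differed by 0.31 ± 0.20, less than P4ha1 and P4ha2.

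The lysyl hydroxylase family was split. Plod2, whose enzyme hydroxylates lysines in the collagen telopeptides (1 oligo, chr9:92502483-92502542), had a signal of 2022 on the choline-deficient array, against 560 on the choline-sufficient array. Its difference was 1.52 ± 0.20, or 2.87-fold higher. Plod1, whose enzyme acts on lysines of the helix, had signals of 298 and 69.6 on the choline-deficient array, against 215 and 51.3 on the choline-sufficient array, from oligos ending at chr4:147291457 and chr4:147302627. That is a difference of 0.13 ± 0.21, smaller than its error. The third Plod1 oligo, designed on an Ensembl transcript (chr4:147290316-147290375), was well above background on neither array, with signals of 1.21 on the choline-deficient and 1.55 on the choline-sufficient array. Plod3, whose enzyme also has glycosyltransferase activity, had a signal of 6205 on the choline-deficient array, against 5450 on the choline-sufficient array. After scaling this was a difference of -0.14 ± 0.20, again smaller than its error. The family's median was 0.13, and only Plod2 of its 3 genes was past 2-fold.

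The lysyl oxidase family held the largest differences of the 10 genes and also the only one below the median of all genes by more than its error. Loxl2, which crosslinks collagen IV among other substrates, had signals of 4671, 5382 and 17514 on the choline-deficient array, against 328, 537 and 1381 on the choline-sufficient array. The difference was 3.28 ± 0.20, or 9.69-fold higher, and its 3 oligos gave 3.50, 2.99 and 3.33. The oligo listed first above gave the highest of these and the one listed second the lowest. Loxl2 ranked 32nd from the highest among the measured genes.

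Lox, the founding member of the family, was next, with signals of 1245 and 3003 on the choline-deficient array, against 153 and 354 on the choline-sufficient array. Its difference was 2.73 ± 0.20, or 6.61-fold higher, with the oligos at 2.70 and 2.75. Lox ranked 96th on the same scale. Loxl1, whose product is needed for elastic fibre upkeep in mice, had signals of 9201 and 1948 on the choline-deficient array, against 1954 and 453 on the choline-sufficient array. The difference was 1.84 ± 0.20, or 3.58-fold higher, and the oligos listed above gave 1.90 and 1.77.

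Loxl3 (1 oligo, chr6:83001888-83001947), a family member needed for palate and spine development in mice, had a signal of 499 on the choline-deficient array, against 262 on the choline-sufficient array. The difference was 0.60 ± 0.20, or 1.51-fold higher, and 14.4% of all measured genes had a larger one. Loxl4 was the exception in direction. Its oligo at chr19:42667320-42667379 had a signal of 1854 on the choline-deficient array, against 2710 on the choline-sufficient array, a difference of -0.88 ± 0.20. The other, at chr19:42668733-42668792, had 1604 on the choline-deficient array, against 1185 on the choline-sufficient array, a difference of 0.11 ± 0.20. The gene's mean of -0.39 ± 0.20 therefore averages oligos of opposite sign that lie 0.98 apart. Of the 5150 genes with 2 or more measured oligos, 9.81% had oligos at least as far apart and 24.8% had oligos of opposite sign. The other 5 of the 10 genes with several measured oligos had them within 0.51 of each other, where the median over all such genes was 0.23.

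**Figure D2:**
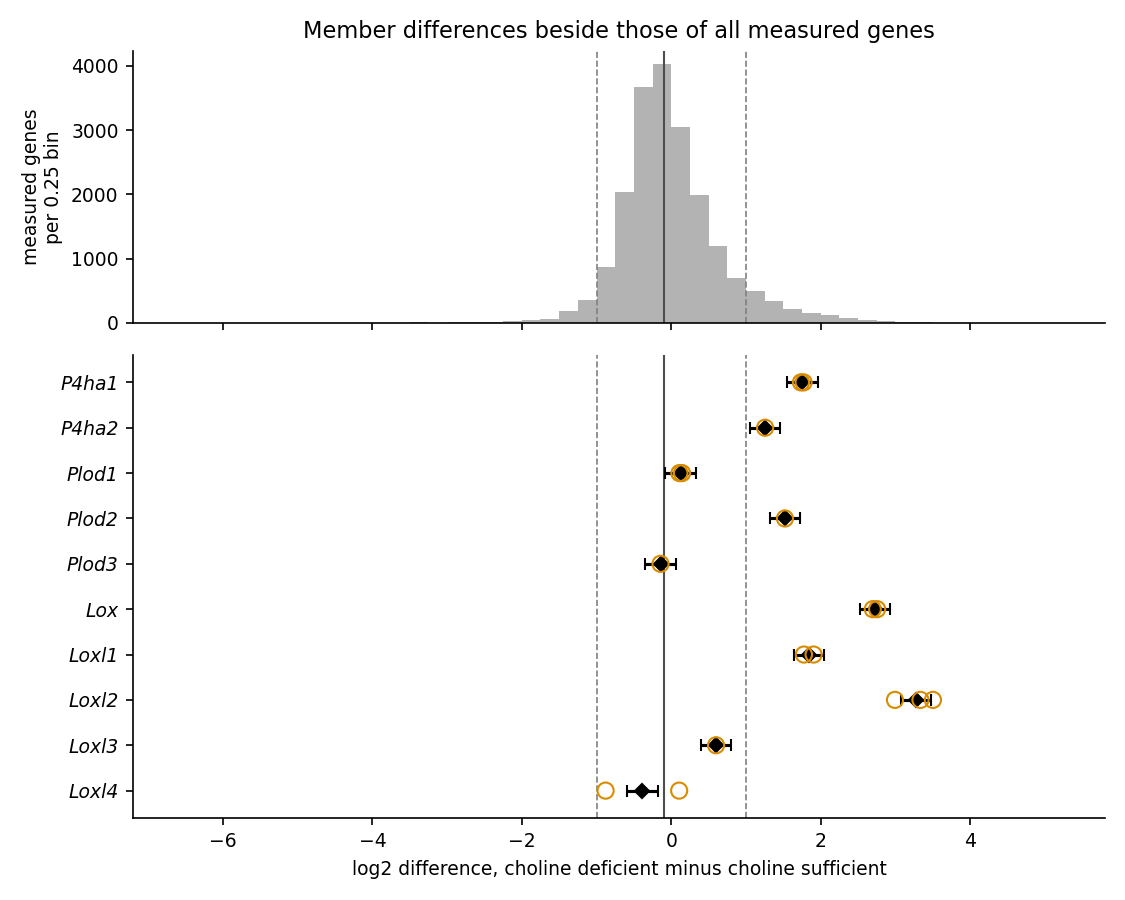
Top, number of measured genes in each bin of 0.25 of the log2 difference, choline-deficient minus choline-sufficient array. Bottom, the difference of each of the 10 genes (black diamond) with the scanner software's error (bar) and the values of its oligos (open circles). The solid line marks the median of all measured genes, -0.10, and the dashed lines a size of 2-fold. Diamonds of 6 genes lie right of the 2-fold line, in the thin upper tail of the distribution above, and 0 lie left of the lower line.

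The scaling sets the zero of these values. Scaling to the arrays' medians moved the median of all genes by -0.12, and scaling to 5 bright spike-in probes moved it by 0.27. Both shifts are the same for every gene, so the distance of a gene from the median of all genes stays as it was: 3.37 for Loxl2, 2.82 for Lox, 1.94 for Loxl1, 1.85 for P4ha1, 1.62 for Plod2 and 1.35 for P4ha2. For the other 4 genes this distance was 0.70 for Loxl3, 0.22 for Plod1, -0.05 for Plod3 and -0.29 for Loxl4. The same 6 genes were at least 2-fold higher under all 11 other ways of processing, with Loxl2 between 3.16 and 3.55 and P4ha2 between 1.14 and 1.53. Some of these ways could not change the calls. The deposited table holds nearly the same scaling, and no spot of the 10 genes was flagged as an outlier. Spike-in scaling only raised every gene. Plod2 and P4ha2 have 1 oligo each, so choosing between oligos leaves them as they were. Loxl4 was below 0 under all 11, between -0.88 and -0.12. Each of these averaged the same 2 Loxl4 oligos or took the brighter, so the oligo at -0.88 carries the sign. The sign of Plod1 turned under 2 of them and that of Plod3 under 2, so their direction is not settled. Genes higher on the choline-deficient array made up 66.4% of all genes at least 2-fold apart, 53.7% with median scaling and 85.6% with spike-in scaling.

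**Figure D3:**
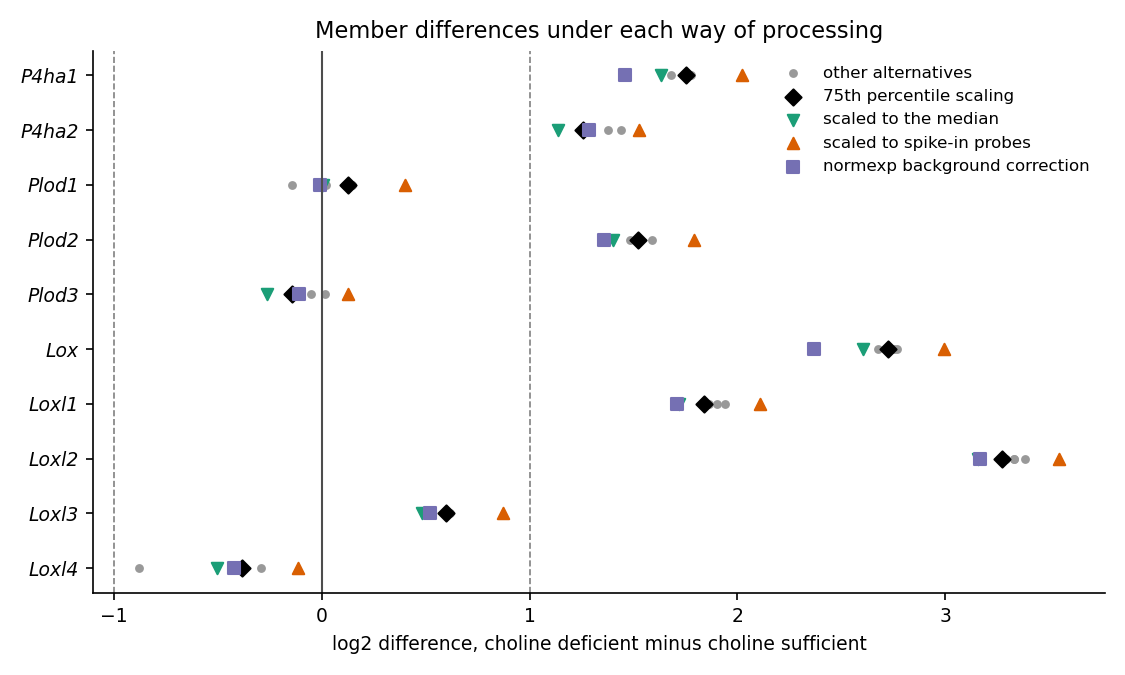
Log2 difference of each of the 10 genes, choline-deficient minus choline-sufficient array, under the 75th percentile scaling (black diamonds) and 11 alternatives. The solid line is 0 and the dashed lines mark 2-fold. P4ha1, P4ha2, Plod2, Lox, Loxl1 and Loxl2 stay right of the upper dashed line throughout, and spike-in scaling (orange) lies furthest right for all 10 genes.

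Most genes that work with these enzymes in the endoplasmic reticulum lay within 2-fold, as did 88.4% of all measured genes. Of 16 genes written for collagen folding and hydroxylation partners 15 were measured, 2 were at least 2-fold higher and 0 lower, with a median of 0.24. The 2 were P4ha3 and Serpinh1, which encodes the collagen chaperone HSP47. Serpinh1 was 2.82-fold higher, with an error of 0.30 in log2, at log2 levels of -6.17 on the choline-deficient and -7.67 on the choline-sufficient array, so it rests on a dim oligo. After normexp Serpinh1 was 0.06, and with the stricter filter on dim oligos neither gene was measured, so the list then held 0 genes past 2-fold. Ppib, the collagen-folding cyclophilin B gene, differed by -0.02 ± 0.20. The prolyl 3-hydroxylase gene P3h3 had 0.75 ± 0.20 and Tmem38b, a gene of an endoplasmic reticulum cation channel, -0.51 ± 0.22. Colgalt2 was well above background on neither array.

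Outside the cell, procollagen is trimmed by proteases of the Bmp1 and Adamts families, and Bmp1 also cuts the Lox proenzyme. In this list of 16 genes 13 were measured, of which 6 were at least 2-fold higher and 0 lower, with a median of 0.97. Adamts2, the procollagen I N-proteinase gene, was 7.48-fold higher (2.90 ± 0.23) and Adamts14, of the same subfamily, 3.15-fold higher (1.66 ± 0.20). Postn, whose product periostin binds Bmp1 and collagen, was 8.55-fold higher (3.10 ± 0.20). Fmod, whose product fibromodulin binds collagen and Lox, was 5.41-fold higher (2.43 ± 0.21). Bmp1 itself was 2.16-fold higher, at 1.11 ± 0.20, but its 3 oligos ran from 0.53 to 1.62, and with median scaling it was 0.99. Fn1, which encodes fibronectin, another Bmp1-binding matrix protein, differed by 0.02 ± 0.20. Tll2, Adamts3 and Lum were well above background on neither array.

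Fibrillar collagens are the main substrates of the enzymes. Of 10 measured genes 9 were higher by 2-fold or more and 1 was lower, with a median of 2.54, which was 1.64 after normexp. Col1a1 and Col1a2, the chains of type I collagen, were 13.5-fold and 8.52-fold higher, Col3a1 8.08-fold and Col5a3 15.3-fold. The exception was Col11a2, at -2.04 ± 0.21, named after its value was seen. With the stricter filter on dim oligos Col11a2 was not measured, and 7 genes of the list were higher and 0 lower. Col27a1, among the 9, was 0.22 after normexp. Among basement membrane collagen genes 4 of 8 measured were 2-fold higher or more and 1 was 2-fold lower or more, with a median of 1.02. Col18a1 was 3.43-fold, Col4a1 2.75-fold and Col7a1 2.67-fold higher, whereas Col4a4 was 3.86-fold lower. Col4a3, of the same list, was well above background only on the choline-sufficient array and at least 4.19-fold lower.

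Of 11 genes of elastic fibres, the other substrate of lysyl oxidases, 6 were at least 2-fold higher and 0 lower, with a median of 1.33. Eln, the elastin gene, was not among them. It differed by -0.08 ± 0.24 at log2 levels of -6.34 on the choline-deficient and -6.27 on the choline-sufficient array. Microfibril genes accounted for much of the count, with Ltbp2 10.7-fold, Fbn1 5.54-fold, Fbln2 5.38-fold and Fbn2 3.84-fold higher. The median of this list was 0.02 after normexp background correction and 2.11 with the stricter filter on dim oligos, so it rests on how dim oligos are treated.

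**Figure D4:**
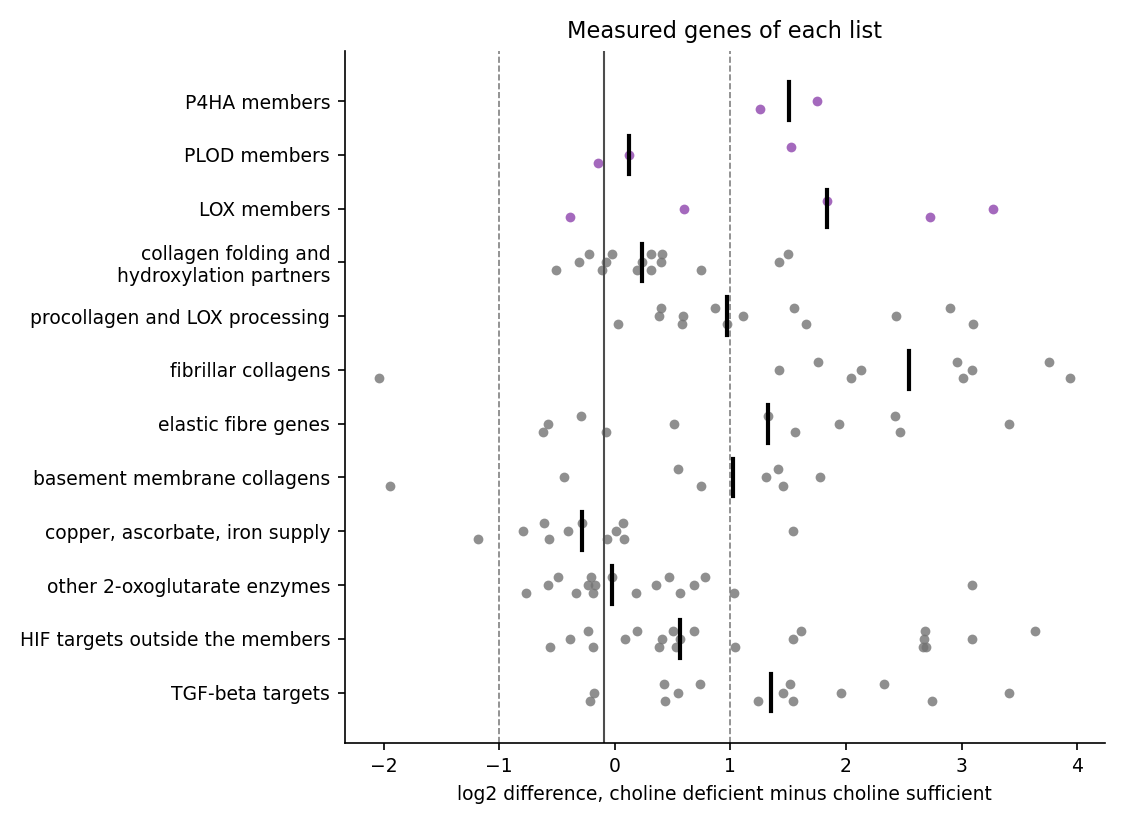
Log2 difference, choline-deficient minus choline-sufficient array, of every measured gene of each list (points), with the list's median (thick bar). The 10 genes are in purple, split by family. The solid line marks the median of all measured genes, -0.10, and the dashed lines 2-fold. Fibrillar collagens lie furthest right, with a median of 2.54, and the copper, ascorbate and iron genes furthest left, with -0.28.

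Lysyl oxidases need copper, loaded in the secretory pathway by the pump Atp7a, and the hydroxylases need iron and ascorbate. Among the genes that supply these cofactors, 1 of 11 measured was at least 2-fold higher and 1 lower, beside 88.4% of all genes within 2-fold. Their median was -0.28, and -0.01 with cyclic loess or spike-in scaling. Slc23a1, an ascorbate carrier gene, was well above background on neither array. Atp7a differed by 0.08 ± 0.20 and Slc31a1, the copper importer gene, by -0.40 ± 0.20. Slc2a1, a glucose transporter that also carries oxidised ascorbate, was 2.91-fold higher, while Gsto1, whose product can reduce oxidised ascorbate, was 2.27-fold lower. The Gsto1 difference of -1.18 was -0.94 with quantile, -0.91 with cyclic loess and -0.91 with spike-in scaling, all within 2-fold. Slc31a2 and Slc11a2, genes of copper and iron transport, had -0.80 ± 0.20 and -0.61 ± 0.21.

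The collagen hydroxylases belong to the 2-oxoglutarate-dependent dioxygenases, a large class of enzymes. Of 17 other genes of the class 2 were at least 2-fold higher and 0 lower, beside 7.67% and 3.88% of all measured genes. Their median was -0.03 in this list, and its sign turned under 5 of the 11 alternatives. Egln3, a prolyl hydroxylase of hypoxia-inducible factors, was 8.53-fold higher (3.09 ± 0.20), with its 2 oligos at 3.08 and 3.11. Asph, the gene of an aspartyl hydroxylase, was 2.05-fold higher, from 4 oligos between 0.83 and 1.36. Asph was within 2-fold under 4 alternatives, at 0.92 with median scaling, 0.98 with quantile scaling, 0.82 after normexp and 0.97 as the median of probes. The related prolyl hydroxylase genes Egln1 and Egln2 had differences of 0.68 ± 0.20 and -0.58 ± 0.20. The histone demethylase gene Kdm4b had 0.78 ± 0.20, and Hif1an, of the asparaginyl hydroxylase that acts on the factors, -0.77 ± 0.20.

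Among 21 measured targets of hypoxia-inducible factors outside the 10 genes, 9 were at least 2-fold higher and 0 lower, with a median of 0.56. Of all measured genes 7.67% were higher by as much and 3.88% lower. This list was written with the higher values of several of its genes already known. Egln3 and Slc2a1, among the 9, also stand in lists above. Car9 was 12.4-fold, Adm 6.45-fold and Pdk1 6.41-fold higher. Other targets of the list were lower, within 2-fold: Ero1a at -0.56, Ndrg1 at -0.39, Vegfa at -0.23 and Pfkfb3 at -0.19. The subunit genes Hif1a and Epas1 had 0.19 ± 0.21 and 0.66 ± 0.20, the Epas1 oligos lying at -0.25 and 1.57, and Vhl had -0.14 ± 0.20. None of the 7 genes of the factors and their regulators was past 2-fold. TGF-beta is a growth factor that raises matrix genes in many cells. Of its 14 measured targets 8 were 2-fold higher or more and 0 were lower, beside 7.67% and 3.88% of all genes. Their median was 1.35. After normexp 6 were higher and the median was 0.80. Ltbp2 and Col4a1, among the 8, also stand in lists above. Tgfbi was 5.04-fold and Acta2 3.89-fold higher, whereas Smad7 and Itgb5 were at -0.18 and -0.21. These levels stand beside those of the enzymes, and no link between them was tested.

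Promoter sequence from RefSeq (GRCm38.p6, 250 bases before to 50 after the start) was at hand for 5 of the 10 genes: P4ha1, P4ha2, Plod1, Plod3 and Loxl4. The letters ACGTG, a form of the core that hypoxia-inducible factors bind, were searched on both strands. They stood in the windows of P4ha1, P4ha2 and Plod3, and not in those of Plod1 and Loxl4. Of all 32851 promoter windows 19.6% hold them. The 250 bases before the start are shown for the 3 genes that hold the letters, with these in capitals (CACGT where they lie on the other strand).
P4ha1, chr10:59323046-59323295, plus strand: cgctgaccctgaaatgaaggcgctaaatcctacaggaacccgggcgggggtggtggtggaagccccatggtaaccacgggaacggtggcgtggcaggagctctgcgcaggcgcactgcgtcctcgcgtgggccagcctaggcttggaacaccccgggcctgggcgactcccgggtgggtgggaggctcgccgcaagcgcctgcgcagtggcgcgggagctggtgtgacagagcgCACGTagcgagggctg
P4ha2, chr11:54100674-54100923, plus strand: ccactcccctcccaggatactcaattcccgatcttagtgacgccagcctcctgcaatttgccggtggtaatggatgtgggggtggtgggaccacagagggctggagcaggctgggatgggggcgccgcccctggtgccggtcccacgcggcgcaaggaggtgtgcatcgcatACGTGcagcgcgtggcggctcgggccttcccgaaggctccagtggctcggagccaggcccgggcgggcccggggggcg
Plod3, chr5:136986769-136987018, plus strand: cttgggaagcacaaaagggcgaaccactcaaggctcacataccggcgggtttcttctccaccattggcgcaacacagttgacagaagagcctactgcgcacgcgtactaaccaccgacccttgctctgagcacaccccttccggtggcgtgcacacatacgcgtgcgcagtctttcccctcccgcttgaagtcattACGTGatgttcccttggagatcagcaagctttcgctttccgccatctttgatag
The match begins 16 bases before the start in P4ha1, 78 in P4ha2 and 54 in Plod3, and P4ha2 holds another 11 bases after its start. With 1 more base, as TACGTG, the letters were present in the same 3 windows, against 3.23% of all windows. As GACGTG they were present in the P4ha2 window alone, after its start, against 6.38% of all windows. Another form of the core, GCGTG, was present in all 5 windows, those of Plod1 and Loxl4 included, and in 32.4% of all. P4ha1 and P4ha2 were 3.37-fold and 2.39-fold higher on the choline-deficient array, while Plod3, with the same letters, differed by -0.14. Promoters of Lox, Loxl1, Loxl2 and Plod2, also at least 2-fold higher, and of Loxl3 were not at hand. Whether the letters and the differences go together was not tested. A match is a run of letters and no measurement of binding.

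Most markers of fibroblasts and pericytes, cells that make much matrix, were also higher on the choline-deficient array. Of 12 such markers 10 were measured, with a median of 1.87, and 8 of these were at least 2-fold higher, beside 7.67% of all genes. The summed level of the 10, in log2, was 6.88 on the choline-deficient and 4.11 on the choline-sufficient array. Col1a2, a fibrillar collagen gene, weighs most in this sum, with log2 levels of 5.96 on the choline-deficient and 2.87 on the choline-sufficient array. Of the 8, Thy1 was 0.06 after normexp and was not measured with the stricter filter on dim oligos. Cspg4 was 0.93 with median scaling and 0.995 after normexp. The list shares Col1a1, Col1a2, Col3a1, Dcn, Lum and Acta2 with the lists above. Of its markers, S100a4 was 6.76-fold higher, Lum was well above background on neither array and Rgs5 only on the choline-deficient array, where it was at least 2.47-fold higher. Muller glia and astrocyte markers had 3 of 7 measured genes at least 2-fold higher and 1 lower, with summed levels of 5.11 on the choline-deficient and 4.09 on the choline-sufficient array. Sox9 was 5.30-fold higher and Slc1a3 3.17-fold higher, Apoe was 3.29-fold lower, and Sox2 and Kcnj10 were well above background on neither array. For endothelium, 0 of 3 measured markers passed 2-fold. Neither array had Cdh5 or Emcn well above background, and Tek and Cldn5 were so only on the choline-sufficient array, which makes Tek at least 3.01-fold and Cldn5 at least 1.64-fold lower. For the retinal pigment epithelium, 0 of 3 measured markers passed 2-fold, and Rpe65, Best1, Lrat and Ttr were well above background on neither array. For microglia and macrophages, Aif1 was 2.43-fold higher, the only one of 6 measured markers past 2-fold, but its difference of 1.28 was 0.40 after normexp. The part of other cells in the values of the 10 genes was not tested. Because each condition has 1 array, the culture, the array and its place on the slide cannot be told apart from the medium.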

How the data were processed

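Gene expression was measured in 1 choline-deficient and 1 choline-sufficient sample of 661W cells, grouped by the treatment in the labels. Per the labels' protocols, 200 ng of RNA went into a low-input amplification and Cy3 labelling. The submitters' processing notes name Agilent Feature Extraction 12.1.1.1. Per the file headers, the processed intensity of each spot has its background subtracted and spatial trend removed and is not scaled between arrays. Each comes with an error. The deposited value table holds a ratio of this signal to a constant of 1609 (choline-deficient array) or 1280 (choline-sufficient array). It keeps the direction of the scanner values and is not centred, with a median of 0.0358 on the choline-deficient and 0.0337 on the choline-sufficient array. The authors' account of that step was not given in the sources used here.

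For each array, log2 was taken of the signals divided by the 75th percentile of all non-control spots. Control spots were left out, as were spots flagged as outliers (92 on the choline-deficient and 86 on the choline-sufficient array). Spots of a probe were averaged, then the probes of a gene that were well above background and not saturated on both arrays. None of the 18 spots of the 10 genes was flagged. Errors of both arrays were propagated to each probe's difference and averaged over a gene's probes. Over 268 probes with at least 8 usable spots, spots of 1 probe differed with a median SD of 0.0481. With 1 array per group no test was possible, and genes were counted at 2-fold. The number of arrays limits the precision.

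The members and lists were chosen with earlier results of these data known. From each list the text names up to 4 genes of largest size, if over 2 times the error, plus partners set by role. Not every gene that this rule names is described. Outside this rule, Ero1a, Ndrg1, Vegfa, Pfkfb3, Smad7 and Itgb5 were named after their values were seen. Of the genes above background on neither array, or on 1 array alone, some are named. No gene is named for a similar pattern, since 2 arrays cannot measure one. Gene names and mm9 positions are those of the files. Exon and UTR annotation on mm9 was not used here, and protein sequences were not used here, so identity between the proteins is not given. Of the 18 oligos' accessions 17 were found in the RefSeq table. Promoters came from RefSeq GRCm38.p6.

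The alternatives were median, quantile, cyclic loess and spike-in scaling, normexp background correction (offset 50, limma 3.58.1), the deposited table, no filter and a stricter filter on dim probes, the brightest probe, the median of probes, outlier spots kept, and other fold sizes. R 4.3.3, Python 3.11.15, pandas 2.3.3 and numpy 2.4.6 were used, and the computation was first tested on simulated data.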

Additional observations from a re-analysis of the deposited data

How the results depend on the processing

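No paired analysis was possible because each group has 1 array. Of the 10 genes, the 6 at least 2-fold higher remained so and 0 became at least 2-fold lower under all 11 alternatives. As said above, some of the alternatives could not change these calls. Spike-in scaling added 0.27 to every gene, which gave 3.55 for Loxl2, 3.00 for Lox, 2.11 for Loxl1, 2.02 for P4ha1, 1.79 for Plod2, 1.53 for P4ha2, 0.87 for Loxl3, 0.40 for Plod1, 0.13 for Plod3 and -0.12 for Loxl4. The medians were then 1.66 for the 10 genes, 2.11 for lysyl oxidases, 0.40 for lysyl hydroxylases and 1.78 for the prolyl 4-hydroxylase subunits. After normexp Lox was 2.37 and P4ha1 1.46. With the brightest probe Loxl4 was -0.88. With no filter on dim probes Plod1 was -0.14, because its dim oligo was then counted, and the lysyl hydroxylase median was -0.14. Over all genes, 1520 were at least 2-fold higher and 769 lower on the choline-deficient array. These counts were 2292 and 385 with spike-in scaling, 742 and 421 after normexp, 976 and 479 with the stricter filter, which leaves 13617 genes, 2932 and 2801 at 1.5-fold, and 607 and 199 at 3-fold. With no filter 1741 were lower. Except where stated, the cause of these shifts was not tested. Of the medians of the 10 other lists, 88 values moved by less than the median error of 0.20 and 22 by more. Among genes named outside the 10, Ppib changed sign under 4 alternatives, Itgb5 under 3 and Atp7a, Hif1a and Vhl under 2 each. Fn1, Eln, Epas1, Vegfa, Pfkfb3 and Smad7 did so under 1 each. Calls also held over all alternatives for Adm, Fbn2, Adamts2 and Fmod where measured, at no less than 1.49, 1.14, 1.91 and 1.61. Signals of 69.6 on the choline-deficient and 51.3 on the choline-sufficient array, from a Plod1 oligo, were the lowest measured among the 10 genes, against local backgrounds between 22.5 and 29 on both arrays, and limit what can be said of that gene.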
